A study of Mus musculus with 24 samples.

Results

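The proteasome genes were taken from mouse liver as every listed gene whose symbol begins with Psm, a letter from a to g and a number, with symbols that carry the pseudogene mark left out. The rule found 50 genes among 43629 gene identifiers, and each was listed in all 24 libraries. The RNA was from liver of wild-type mice of the inbred strain C57BL/6, sampled when young (about 4 months of age) or old (about 19 months of age). Sampling covered the day in steps of 4 h by zeitgeber time (ZT), counted from lights on: the first samples are ZT2, followed by ZT6, ZT10, ZT14, then ZT18 and finally ZT22. There were 2 replicate libraries for each combination of age and time, so 12 libraries per age. No group carried an allele, a diet or an agent according to the labels. The design text speaks of 2 days of collection, and nothing in the labels states that replicates were separate animals, so each p measures only the spread between these samples, which may be technical.

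The proteasome is the large protease that degrades proteins tagged with ubiquitin chains. Its 20S core is a barrel of alpha rings, which gate the entrance, and beta rings, which hold the cutting sites. The 19S cap has a base with a ring of ATPases that unfold the substrate and a lid that removes the ubiquitin chain. Under interferon, Psmb8, Psmb9 and Psmb10 can replace the cutting subunits Psmb5, Psmb6 and Psmb7 and give the immunoproteasome, which is known for making peptides that class I molecules present. Assembly chaperones build the core and the base, and activators of the PA28 and PA200 families can open the core in place of the cap. The transcription factor NFE2L1 is known to raise many subunit genes together when the proteasome is inhibited.

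Mapped depth, worked out from coverage and FPKM in the deposited files, was equal to 8.70 to 13.7 M reads of 50 bases per library, with a median of 10.5 M. TPM (a level per length of transcript, as a part of all transcripts in a library) were scaled to a common level across libraries, and these scaled TPM are the levels given. Of the 50 genes, 47 had a mean of at least 1 deposited TPM and were tested among 12261 genes. The summed level of 5 hepatocyte markers (Alb, Apoa1, Ttr, Ass1 and Cps1) was 70337 to 100320 scaled TPM in young and 75105 to 102776 in old, so the libraries carried the labelled tissue's defining transcripts at both ages. Libraries stood apart in 3 ways. The second young ZT18 library held 3823 scaled TPM of 8 pancreatic acinar markers, against at most 63.1 in the other libraries, and 7 of these 8 markers were at 0 in at least 12 libraries. The old ZT14 libraries had 3.42% and 8.74% mitochondrial transcripts, against 10.7% to 17.1% elsewhere, and the old ZT10 libraries had the highest macrophage marker sums, 1033 and 1444 scaled TPM.

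By the median of their mean levels, the 20S core genes were the most abundant and the 19S cap genes lay below them, with overlap. The 7 alpha ring genes had mean levels from 69.3 scaled TPM (Psma5) to 174 (Psma6), with a median of 133. The 7 constitutive beta ring genes ran from 76.2 (Psmb2) to 205 (Psmb7), with a median of 184. Of the constitutive cutting subunits, Psmb5, the chymotrypsin-like one, had 85.3 ± 16.7 scaled TPM in young (SD, n = 12 libraries over all times) and 81.0 ± 18.01 in old. Psmb6, the caspase-like one, had 195 ± 23.0 and 189 ± 23.3. Psmb7, the trypsin-like one, had 220 ± 46.2 and 190 ± 30.5, and its mean over all libraries was the highest of the family. The listed Psmb5 gene contains a microRNA gene, Mir686, on the same strand, with an overlap of 109 bases and a mean of 157 scaled TPM. Psmb7 overlaps Gm27634 on the same strand by 126 bases. Reads in those stretches have more than 1 possible source. Psmb7 also overlaps Nek6 on the opposite strand by 6 bases.

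The 6 ATPases of the 19S base had mean levels from 62.0 scaled TPM (Psmc5) to 131 (Psmc3), with a median of 88.3. The 11 non-ATPase cap subunits that the name rule found ran from 39.6 (Psmd3) to 95.4 (Psmd8), with a median of 59.5. These 31 genes of the alpha ring, the constitutive beta ring and the 19S cap are called the standard subunits here. Their lowest value in a single library was 33.5 scaled TPM (Psmd3). Genes for the helpers were lower. The base chaperones Psmd5, Psmd9 and Psmd10 had means of 30.3, 16.5 and 13.7 scaled TPM, and the core chaperones Psmg1, Psmg2, Psmg3 and Psmg4 had 26.8, 14.6, 14.8 and 15.4.

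Among the activators, both subunits of PA28 reached the level of the core. Psme1 had 149 ± 20.2 scaled TPM in young and 146 ± 37.3 in old (SD, n = 12), and Psme2 had 207 ± 52.3 and 198 ± 30.3, above Psmb7 in old by the mean. Psme2b, a near-identical copy of Psme2, was listed at 37.0 scaled TPM, and how reads were shared between these copies is not known. The nuclear activator Psme3 and the PA200 gene Psme4 had 33.1 and 34.9. The lowest gene tested was Psmf1, which encodes the inhibitor PI31, at 9.66 scaled TPM.

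The 3 immunoproteasome genes had lower means than each of the standard subunits, at 33.6 scaled TPM for Psmb10, 29.1 for Psmb8 and 10.2 for Psmb9. The other 3 genes failed the filter on low values. Psma8, the alpha subunit known from testis, had 0.638 ± 0.330 scaled TPM in young and 0.904 ± 0.427 in old. Psmb11, the beta subunit known from thymus, was listed at 0 in 24 of 24 libraries. Psmc3ip, a meiotic recombination gene that matches the rule by its name and encodes no proteasome protein, had a mean of 0.0938 and a highest library of 0.543.

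**Figure D1:**
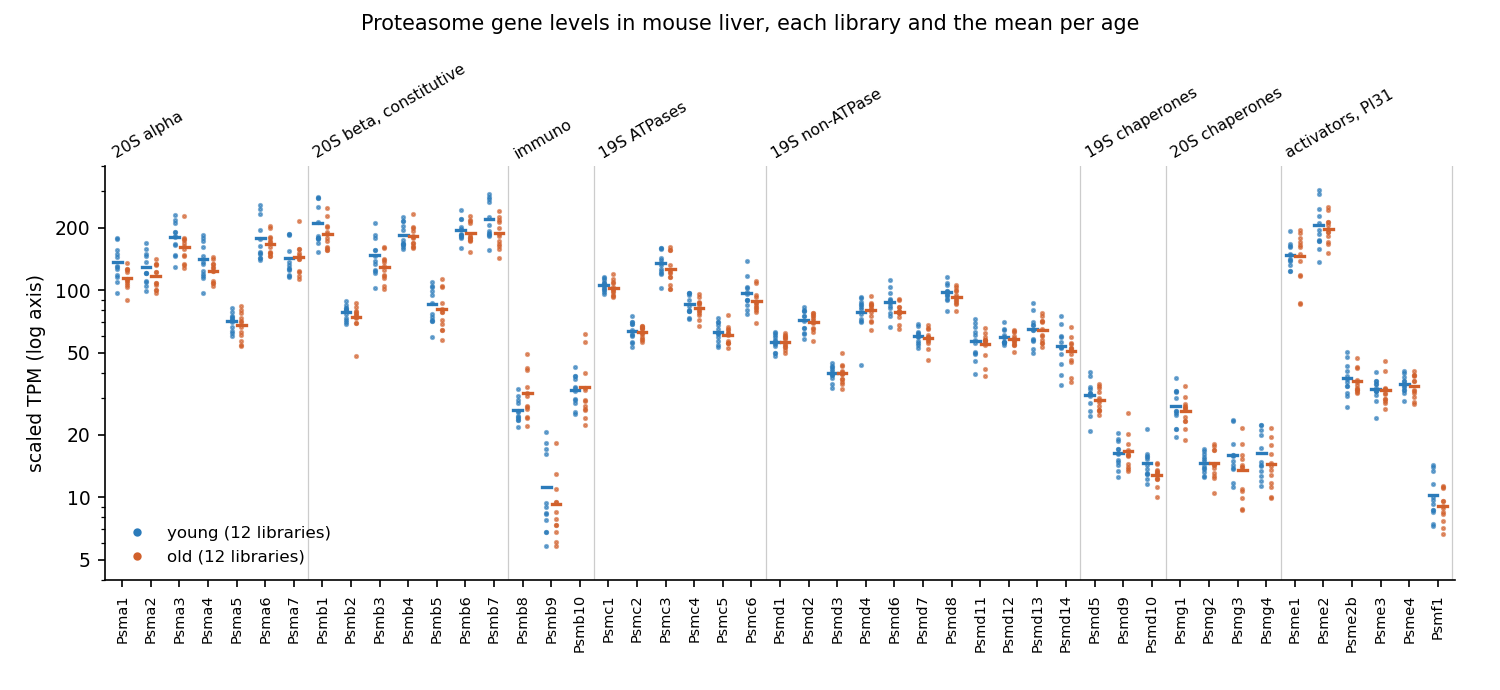
Level of each of the 47 tested proteasome genes in scaled TPM (log axis), ordered by role; points are libraries and bars are the mean of 12 libraries per age. The core subunits and both PA28 genes lie highest, the median of the constitutive beta ring being 184, and the immunoproteasome genes, chaperones and Psmf1 (9.66) lie lowest.

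The standard subunits varied little over the 24 libraries. The highest library was less than 2-fold above the lowest for 27 of the 31, or 87.1%, against 22.99% of all genes tested. The median of this fold was 1.74 for the standard subunits, 2.64 for all genes, 2.51 for 87 cytosolic ribosomal protein genes and 2.27 for 87 nuclear respiratory chain genes. Psmc1, an ATPase, had the narrowest range, 1.30-fold, from 92.7 to 120 scaled TPM. Psmd14 had the widest of the 31, 2.16-fold. The immunoproteasome genes were wider: 2.24-fold for Psmb8, 2.76-fold for Psmb10 and 3.57-fold for Psmb9. The median level was 83.8 scaled TPM for the standard subunits and 9.33 for all genes tested, and the part of the level in this spread was not tested.

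Within a library the standard subunits tended to lie on the same side of their own means. In the first young ZT18 library, 26 of the 31 were above their mean over all libraries, with a median deviation of 0.28 on the log2 scale. In the first young ZT10 library 3 of 31 were above it, and the median deviation was -0.26. Replicates of a group were not alike in this: 25 of 31 were above their mean in the first young ZT14 library and 6 in the second. By age, the mean of the median deviation was 0.04 ± 0.158 for young (SD, n = 12) and -0.04 ± 0.10 for old. The libraries' scaling factors, by which TPM were divided, tended to move the other way. They were 0.829 in that young ZT18 library and 1.155 in that young ZT10 library, within a range of 0.813 to 1.22. The first old ZT14 library had a factor of 1.17 and a median deviation of 0.08. In the deposited TPM without scaling, those young ZT18 and ZT10 libraries had median deviations of 0.0077 and -0.05. The highest there was the first old ZT14 library at 0.30, which had the lowest mitochondrial share. The part of the scaling and of the mitochondrial share in these deviations was not tested.

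**Figure D2:**
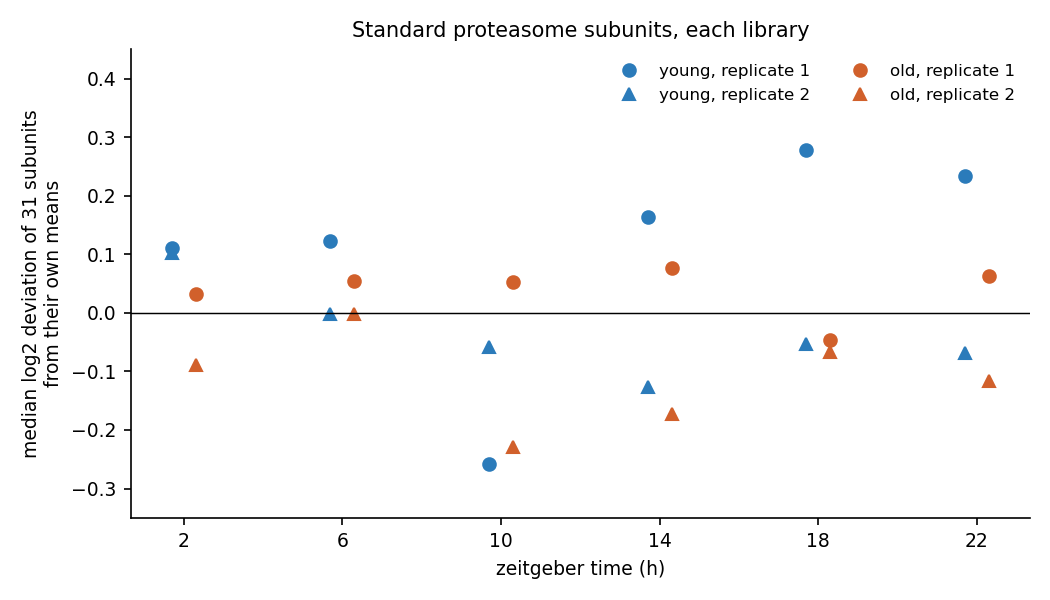
Median log2 deviation of the 31 standard subunits from their own means, on scaled TPM, for each library against zeitgeber time in hours; colour gives the age and the symbol the replicate. The points run from -0.26 to 0.28, and the 2 replicates of a group are often farther apart than the ages, as at young ZT14.

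For the question of how age altered these genes over the day, none passed the threshold of an adjusted p under 0.05 (limma, Benjamini-Hochberg over 12261 genes) in either direction. The share of all genes that passed was 1.64%, with 1.14% (140 genes) higher and 0.498% (61 genes) lower in old. This split was 225 and 38 genes in deposited TPM and 222 and 49 in deposited FPKM. At an unadjusted p under 0.05 there were 3 of 47, against 11.6% of all genes. In these bulk samples fewer cells of a type and less RNA per cell cannot be told apart.

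Psma1, an alpha ring gene, ran from 97.4 to 178 scaled TPM in the young libraries, with a median of 130, and from 89.2 to 135 in the old, with a median of 113. The ages overlapped from 97.4 to 135, and the highest young libraries were the first replicates of ZT18 and ZT22. Its difference, old minus young, was -0.23 on the log2 scale (SE 0.090, limma unadjusted p = 0.0216, adjusted p = 0.293). Psmb8 differed by 0.23 (SE 0.092, limma adjusted p = 0.300). Psmd6, a lid subunit, had 87.9 ± 12.5 scaled TPM in young and 78.8 ± 7.53 in old, a difference of -0.15 (SE 0.070, limma adjusted p = 0.423). Psmb8 had a limma adjusted p of 0.0225, with a difference of 0.34, in the deposited TPM without scaling, the setting among those without a replicate block where it passed.

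The estimates were small and their intervals narrow. For the 31 standard subunits the 95% interval of the age difference lay within 0.5 log2 units of 0 (1.414-fold either way) in 31 of 31, against 73.8% of all genes. The lowest bound among them was -0.46 and the highest 0.26. Over the 47 genes it did so in 44, and the exceptions were Psmb9 (-0.66 to 0.23), Psmg3 (-0.53 to 0.01) and Psmg4 (-0.50 to 0.16). Estimates were below 0 for 27 of the 31 standard subunits in scaled TPM, with a median of -0.07, against 53.0% of all genes and a median of -0.01. This side depended on the scaling: in deposited TPM 9 of 31 were below 0 and the median was 0.05, and in deposited FPKM 14 of 31, with a median of 0.0035. Leaving out the scaling moved the median of all genes by 0.10, and relative to the median of all genes the standard subunits were at -0.05 with scaling, -0.04 in deposited TPM and -0.05 in deposited FPKM, but at -0.0019 after quantile normalization. By comparison, 75 of 87 ribosomal protein genes and 80 of 87 respiratory chain genes were below 0 in scaled TPM, with medians of -0.08 and -0.15.

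**Figure D3:**
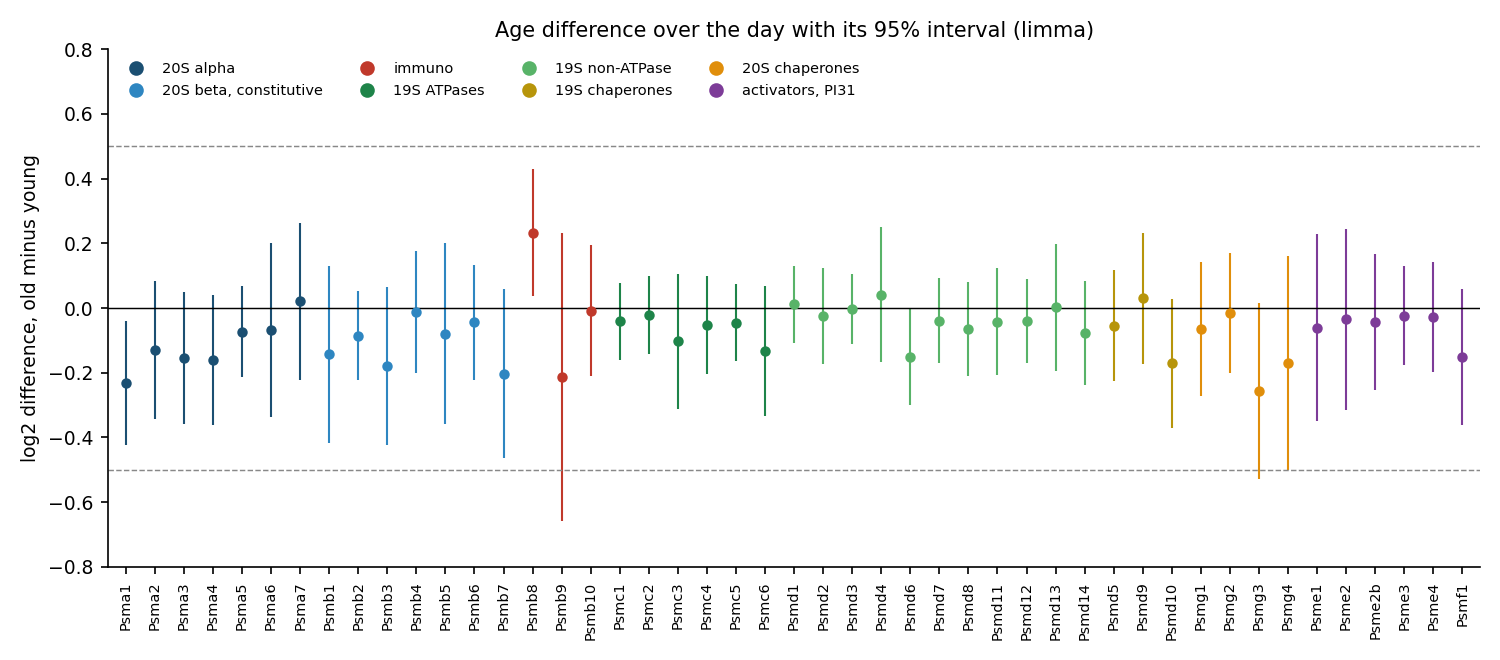
Age difference over the day, old minus young, on the log2 scale for the 47 tested genes with its 95% interval from limma, coloured by role; dashed lines mark 0.5 log2 units either way. Intervals of 44 genes lie inside the dashed lines, and Psmb8 is the gene farthest above 0 at 0.23.

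At single times no gene of the family passed either in the main fit, which had no replicate block. Among all genes 0.0% passed at ZT2 and at ZT6, 0.53% at ZT10, 0.0408% at ZT14, 0.0245% at ZT18 and 0.00816% at ZT22. The smallest p of the family was that of Psmb8 at ZT10, where old livers were higher by 0.81 on the log2 scale (SE 0.225, limma unadjusted p = 0.0026, adjusted p = 0.162). The next were Psmb2 at ZT14 (-0.44, limma adjusted p = 0.480) and Psmg3 at ZT18 (-0.70, limma adjusted p = 1.0). Those were the only 3 of the family's differences at single times with an unadjusted p under 0.05, against 4.01%, 4.04%, 7.92%, 7.86%, 4.64% and 3.04% of all genes from ZT2 to ZT22. No gene of the family passed the test of whether the age difference varied over the times, where 0.0163% of all genes did, and none had an unadjusted p under 0.05, against 3.6%. The smallest were those of Psmb8 (unadjusted p = 0.138), Psmb2 (0.164) and Psmd3 (0.175), by limma.

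Rhythms were read from a cosine and a sine of 24 h fitted to each age, and the amplitude is how far the fitted peak lay above the trough on the log2 scale. On the mean of both ages 5 of 47 genes passed the threshold, or 10.6%, against 23.9% of all genes. They were the standard subunits Psmd14, Psmd11 and Psma5 and the immunoproteasome genes Psmb10 and Psmb8. In a test over the 6 times without a curve, Psmd14 (limma adjusted p = 0.0120) and Psmb10 (0.0168) passed and the others did not, against 15.3% of all genes. Within an age, 0 of 47 passed that test in young and 0 in old, against 6.86% and 5.65% of all genes. The median amplitude was 0.21 for the standard subunits, 0.36 for all genes, and 0.28 for both the ribosomal protein and the respiratory chain genes. None of the alpha ring genes other than Psma5, the constitutive beta ring genes, the ATPases, the chaperones or the activators passed, and the highest amplitude among them was that of Psmf1 (0.45, limma adjusted p = 0.0762). In deposited TPM without scaling Psmc3, Psmd9 and Psme1 also passed (limma adjusted p = 0.0410, 0.0179 and 0.0395).

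The starts of these 5 genes, with Psmb9 as the remaining immunoproteasome gene, are shown because these 5 passed the rhythm test. Each window runs from 250 bases before to 50 after the RefSeq start site in GRCm38.p6, 5′ to 3′ on the gene's strand. Capitals mark the letters that matched a motif searched on both strands, and positions are counted with 1 at the start site. RefSeq windows matched 42 of the 50 genes by symbol, in 45 windows. The windows are chr2:61711444-61711743 (+) for Psmd14, chr11:80428365-80428664 (+) for Psmd11, chr3:108256676-108256975 (+) for Psma5, chr8:105938343-105938642 (-) for Psmb10, chr17:34197945-34198244 (+) for Psmb8 and chr17:34187281-34187580 (-) for Psmb9. The start sites of Psmb8 and Psmb9 lie 474 and 434 bases inside the genes as the files list them.
Psmd14: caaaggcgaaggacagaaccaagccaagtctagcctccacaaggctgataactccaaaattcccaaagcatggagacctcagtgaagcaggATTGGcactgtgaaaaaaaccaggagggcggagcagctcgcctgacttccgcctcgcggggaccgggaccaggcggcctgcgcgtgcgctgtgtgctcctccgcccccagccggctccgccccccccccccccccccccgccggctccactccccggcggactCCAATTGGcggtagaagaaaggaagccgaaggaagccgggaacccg
Psmd11: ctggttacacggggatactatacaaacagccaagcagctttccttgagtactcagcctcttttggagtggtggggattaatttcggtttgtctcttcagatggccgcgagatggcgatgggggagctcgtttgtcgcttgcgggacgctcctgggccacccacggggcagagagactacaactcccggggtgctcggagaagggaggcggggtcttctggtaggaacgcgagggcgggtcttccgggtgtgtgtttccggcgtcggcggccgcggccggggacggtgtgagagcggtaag
Psma5: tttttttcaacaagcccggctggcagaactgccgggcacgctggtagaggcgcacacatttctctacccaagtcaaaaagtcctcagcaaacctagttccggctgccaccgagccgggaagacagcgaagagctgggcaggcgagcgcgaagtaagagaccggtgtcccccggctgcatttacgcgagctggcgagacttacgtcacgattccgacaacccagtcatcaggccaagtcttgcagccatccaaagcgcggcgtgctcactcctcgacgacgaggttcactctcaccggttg
Psmb10: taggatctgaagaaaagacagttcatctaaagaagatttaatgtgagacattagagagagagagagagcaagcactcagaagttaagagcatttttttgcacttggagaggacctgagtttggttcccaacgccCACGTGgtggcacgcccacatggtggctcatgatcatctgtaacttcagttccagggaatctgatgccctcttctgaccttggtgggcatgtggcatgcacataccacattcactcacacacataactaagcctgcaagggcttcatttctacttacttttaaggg
Psmb8: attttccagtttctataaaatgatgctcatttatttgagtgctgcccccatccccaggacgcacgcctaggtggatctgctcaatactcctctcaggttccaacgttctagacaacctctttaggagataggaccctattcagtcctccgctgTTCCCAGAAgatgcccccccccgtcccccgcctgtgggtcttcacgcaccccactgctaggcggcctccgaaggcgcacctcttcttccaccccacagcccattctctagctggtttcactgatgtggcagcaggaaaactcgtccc
Psmb9: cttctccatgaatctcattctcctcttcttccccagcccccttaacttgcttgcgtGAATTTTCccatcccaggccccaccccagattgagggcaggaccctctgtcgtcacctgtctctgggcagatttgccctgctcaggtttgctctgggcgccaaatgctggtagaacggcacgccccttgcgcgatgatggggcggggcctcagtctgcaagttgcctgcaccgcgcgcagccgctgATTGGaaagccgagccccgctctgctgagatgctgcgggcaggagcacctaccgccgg

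The motifs searched were the antioxidant response core TGACNNNGC, which NFE2L1 and NFE2L2 bind, the E-box CACGTG, which clock proteins bind, the CCAAT box, the interferon-stimulated core (GAAA, any 2 bases, GAAA), the STAT site TTCNNNGAA and the heat shock pair GAANNTTC. Psmd14 held CCAAT letters at -159, 5 and 8, the last pair overlapping on opposite strands. Psmb10 held an E-box at -116. Psmb8 held a STAT site at -97, and Psmb9 a heat shock pair at -194 and CCAAT letters at -8. Psmd11 and Psma5 held none of the 6. Over all 32851 windows, 37.4% held CCAAT, 12.4% the antioxidant core, 8.30% the STAT site, 7.86% the heat shock pair, 7.15% the E-box and 3.44% the interferon core. Of the 45 windows of the family, 15 held CCAAT, 6 the antioxidant core (Psmb5, Psmb6, Psmc6, Psmd12, Psmd9 and Psme4), 5 the interferon core (Psmb3, Psmd4, Psmd9, Psme1 and Psmg4), 4 the E-box (Psma4, Psmb10, Psmd9 and Psme3) and 3 each the STAT site and the heat shock pair. A match is only a run of letters in a window.

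Psmd14 (ENSMUSG00000026914, chr2:61711694-61800376 in GRCm38) encodes the lid enzyme that cuts the ubiquitin chain off substrates as they enter. In young livers it had 60.3 and 53.3 scaled TPM at ZT2, 49.0 and 52.4 at ZT6, 34.8 and 38.8 at ZT10, 56.4 and 44.2 at ZT14, 69.1 and 59.2 at ZT18, and 75.2 and 53.3 at ZT22. In old livers it had 54.8 and 52.5, 49.0 and 55.5, 45.2 and 37.9, 35.8 and 46.0, 52.8 and 51.9, and 66.7 and 59.2 at the same times. Both ages were low at ZT10 and high at ZT22, and the old stayed low at ZT14. The amplitude was 0.61 (SE 0.107, limma adjusted p = 0.00078), a 1.53-fold swing that peaked at ZT22.4. It passed in young (0.69, adjusted p = 0.0127, against 10.7% of all genes) and in old (0.58, adjusted p = 0.0451, against 8.96%), both by limma. The call in young was lost without either young ZT10 library or without the first young ZT22 library (limma adjusted p = 0.0682, 0.0522 and 0.0534), and the call in old was lost in 15 of 24 fits that each left out 1 library.

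Psmd11 (ENSMUSG00000017428, chr11:80428615-80473248), another lid subunit, peaked at ZT0.80. Its young libraries had 72.4 and 69.4 scaled TPM at ZT2, 57.7 and 60.7 at ZT6, 39.6 and 50.4 at ZT10, 45.3 and 62.6 at ZT14, 49.6 and 49.1 at ZT18, and 55.9 and 66.5 at ZT22. The old had 65.7 and 62.3, 54.7 and 56.9, 38.5 and 57.2, 48.5 and 41.6, 56.2 and 57.5, and 57.3 and 59.8. ZT2 was the highest time at both ages, and the replicates lay far apart at old ZT10 and young ZT14. The amplitude was 0.49 (SE 0.108, limma adjusted p = 0.00599), and in deposited TPM it was 0.40 (limma adjusted p = 0.107). Neither age passed alone (limma adjusted p = 0.0727 in young and 0.122 in old).

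Psma5 (ENSMUSG00000068749, chr3:108256926-108279974), an alpha ring gene and the lowest of its ring, peaked at ZT3.53 with an amplitude of 0.34 (SE 0.086, limma adjusted p = 0.0190). Young libraries ran from 60.4 to 82.1 scaled TPM, with a median of 71.8. The old had 73.7 and 71.2 at ZT2, 84.0 and 77.8 at ZT6, 79.8 and 56.9 at ZT10, 54.0 and 54.7 at ZT14, 62.6 and 61.1 at ZT18, and 70.3 and 66.6 at ZT22. In old livers both ZT14 libraries and the second ZT10 library were below every young library. Psma5 passed in old (0.46, limma adjusted p = 0.0487) and not in young (0.22, adjusted p = 0.463), and the difference in rhythm between the ages did not pass (limma unadjusted p = 0.366). The call in old was lost in 18 of 24 fits that each left out 1 library, and the call on the mean of both ages was lost without the second young ZT18 and first old ZT14 libraries (0.30, limma adjusted p = 0.0565).

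Averaged over both ages, the immunoproteasome genes Psmb10 and Psmb8 were highest at ZT10 or ZT14, while the young mean of Psmb8 was highest at ZT18. Psmb10 (ENSMUSG00000031897, chr8:105935728-105938392), the inducible counterpart of Psmb7, had 25.3 and 25.9 scaled TPM at ZT2 in young livers, 32.8 and 29.6 at ZT6, 37.4 and 34.2 at ZT10, 42.7 and 38.5 at ZT14, 38.6 and 33.6 at ZT18, and 28.6 and 29.96 at ZT22. Old livers had 26.4 and 22.3, 33.6 and 27.7, 56.0 and 39.8, 61.6 and 33.0, 29.6 and 26.7, and 24.2 and 29.3. The young replicates stayed close together, while the old ones at ZT14 were nearly 2-fold apart, the higher being the library with the lowest mitochondrial share. The amplitude was 0.77 (SE 0.126, limma adjusted p = 0.000426), a 1.70-fold swing that peaked at ZT12.5. It was 0.98 in old (SE 0.179, limma adjusted p = 0.00342) and 0.60 in young (adjusted p = 0.0783, or 0.0299 without the first old ZT14 library). The call on the mean of both ages held in each of 34 alternatives, and the call in old in each but the fit without ZT10 (0.87, limma adjusted p = 0.0589).

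Psmb8 (ENSMUSG00000024338, chr17:34197721-34201454), the inducible counterpart of Psmb5, had 23.5 and 21.9 scaled TPM at ZT2 in young livers, 29.6 and 25.7 at ZT6, 24.8 and 26.1 at ZT10, 30.8 and 24.1 at ZT14, 33.4 and 23.6 at ZT18, and 28.5 and 24.3 at ZT22. Old livers had 27.7 and 22.2, 33.9 and 24.2, 49.2 and 41.0, 42.3 and 30.7, 31.8 and 24.4, and 27.2 and 26.6. Both old ZT10 libraries, the first old ZT14 library and, by little, the first old ZT6 library were above every young library. At ZT10 the ages did not overlap, and at the other times they did. The amplitude was 0.43 on the mean of both ages (SE 0.128, limma adjusted p = 0.0494), 0.73 in old (SE 0.181, adjusted p = 0.0315) and 0.17 in young (adjusted p = 0.797). The call on the mean of both ages was lost in 16 of 24 fits that each left out 1 library. The call in old was lost without the first or second old ZT10 library (limma adjusted p = 0.116 and 0.0836), the first old ZT14 library (0.0758), the second old ZT2 library (0.0768) or all of ZT10 (0.366).

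Psmb9 (ENSMUSG00000096727, chr17:34181988-34187764), the inducible counterpart of Psmb6, shares 212 bases with Tap1 on the opposite strand. Its replicates were far apart in young livers, with 8.37 and 16.2 scaled TPM at ZT2, 18.2 and 6.81 at ZT6, 17.1 and 7.76 at ZT10, 5.79 and 8.32 at ZT14, 20.7 and 6.76 at ZT18, and 8.99 and 9.36 at ZT22. Old livers had 7.31 and 5.84, 9.46 and 6.08, 13.0 and 18.2, 11.0 and 7.35, 6.78 and 9.45, and 7.82 and 8.47, and ZT10 was the highest old time. It did not pass a rhythm test (0.33 on the mean of both ages, limma adjusted p = 0.666).

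No gene of the family passed the test of a rhythm difference between the ages. Among all genes 0.0% passed by limma, with 3.5% at an unadjusted p under 0.05 and 0 of the 47 at that level. The smallest p values were those of Psmb8 (unadjusted p = 0.0632), Psmd13 (0.0901), which shares 1194 bases with Gm15542 on the same strand, and Psmb10 (0.126), with limma adjusted p of 0.9999. An amplitude called in old and not in young is therefore not shown to differ between them.

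**Figure D4:**
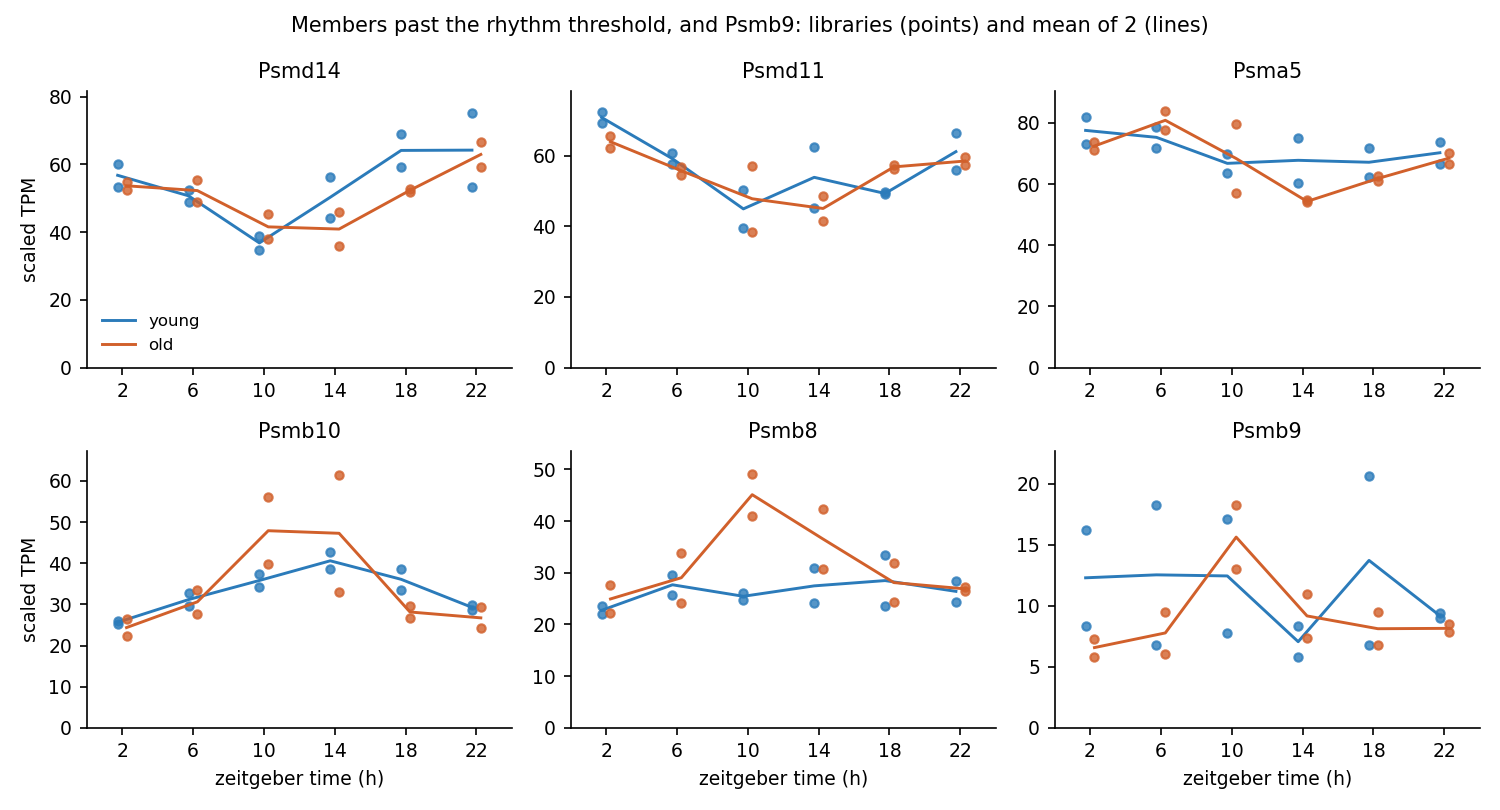
Scaled TPM against zeitgeber time in hours for the 5 genes past the rhythm threshold on the mean of both ages and for Psmb9; points are libraries and lines join the mean of 2 libraries per age and time. Averaged over both ages, Psmd14 and Psmd11 are lowest at ZT10 and Psmb10 and Psmb8 highest at ZT14 and ZT10, with the old libraries of Psmb8 at ZT10 (49.2 and 41.0) above all young ones.

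The sums of macrophage and of neutrophil markers were higher at old ZT6 and old ZT10 than in any young library. The summed level of 12 found of 13 Kupffer cell and macrophage markers was 482 to 731 scaled TPM in young and 548 to 1444 in old, and at ZT10 it was 590 and 538 in young against 1033 and 1444 in old. Of these 12 genes, 2 were higher in old (Marco and Mpeg1, against 1.14% of all genes). Age estimates were above 0 for 11 of the 12, from 0.0047 for Clec4f to 2.01 for Marco, and -0.06 for Timd4. Rhythms passed in 5 in old (against 8.96%) and in 0 in young (against 10.7%). The rhythm difference between the ages passed in 0, and 7 had an unadjusted p under 0.05 for it (limma), against 3.5% of all genes. At old ZT14 the sum was 623 and 775, and at old ZT6 it was 805 and 945. Neutrophil markers summed to 89.8 and 107 at old ZT6, 103 and 132 at old ZT10 and 2.65 and 31.6 at old ZT14, against at most 22.6 in young. At old ZT6 Psmb8 had 33.9 and 24.2 scaled TPM and Psmb10 33.6 and 27.7. At old ZT14 Psmb8 had 42.3 and 30.7 and Psmb10 61.6 and 33.0. The neutrophil defining genes Ly6g, Mpo, Elane, Camp and Ltf were at 0 in 24, 22, 22, 23 and 22 of the 24 libraries. The neutrophil sums came mostly from S100a8 and S100a9, with means of 14.7 and 14.5 scaled TPM, against 1.52 for Retnlg. The 11 T and NK cell markers summed to 3.41 to 7.80 in young and 1.56 to 13.9 in old, with Trac, Gzma and Ncr1 at 0 in at least 12 libraries. Immunoglobulin transcripts of plasma and B cells were higher in old: Igkc had 21.1 ± 9.50 scaled TPM in young and 143 ± 93.6 in old (SD, n = 12; limma adjusted p = 6.2e-05), and Ighm had 6.70 ± 2.22 and 55.0 ± 47.7 (limma adjusted p = 0.000162). The part of these cells in the Psmb8 and Psmb10 levels and in the ratios that follow was not tested.

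The share of inducible to constitutive transcript was compared for the 3 pairs of cutting subunits, by exchanging the age labels among the libraries of each time in an exact permutation test, two-sided (46656 arrangements, smallest possible p = 4.29e-05, adjusted over the 3 ratios). These ratios do not depend on the scaling of a library, apart from the pseudocount. Psmb8 as a percent of Psmb5 was 31.6 ± 5.24% in young (SD, n = 12; lowest 21.2, median 32.5, highest 41.5) and 40.8 ± 13.96% in old (25.5, 37.7 and 71.4). The old mean was higher at 6 of 6 times, and the log2 ratio was higher by 0.31 (exact permutation p = 0.00682, adjusted p = 0.0204). Mir686 lies in Psmb5 on the same strand, and the part of shared reads in this ratio was not tested. At ZT10 the old libraries had 62.9% and 71.4% and the young 41.5% and 36.7%. Without ZT10 the difference was 0.22 (exact permutation adjusted p = 0.121), without the first young ZT22 library 0.28 (adjusted p = 0.0655) and without the second old ZT22 library 0.27 (adjusted p = 0.0680).

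Psmb10 as a percent of Psmb7 was 15.6 ± 3.82% in young and 18.04 ± 5.42% in old, a log2 difference of 0.20 that did not pass (exact permutation p = 0.0722, adjusted p = 0.108, higher in old at 5 of 6 times). It passed without the second young ZT18 library (0.23, adjusted p = 0.0492), the second young ZT22 library (0.26, 0.0430) or the first old ZT22 library (0.25, 0.0485), by the same exact permutation. Psmb9 as a percent of Psmb6 was 5.84 ± 2.91% in young and 4.99 ± 2.36% in old, a log2 difference of -0.17 (exact permutation p = 0.466, higher in old at 2 of 6 times). Over both ages the ratios were highest at ZT10, with means of 53.2% for Psmb8, 23.6% for Psmb10 and 8.25% for Psmb9. At ZT2 these means were 27.3%, 13.2% and 4.89%. The constitutive subunits Psmb5, Psmb6 and Psmb7 had their lowest means over both ages at ZT10, at 66.6, 177 and 179 scaled TPM. In young livers each was lowest at ZT10, but in old livers only Psmb5 was (67.8). Old means of Psmb6 were 182 at ZT10 and 179 at ZT18, and those of Psmb7 were 184 at ZT10 and 175 at ZT2. None of these 3 genes passed the rhythm test on the mean of both ages. In young livers Psmb8 had a mean of 25.4 scaled TPM at ZT10 and 28.5 at ZT18, while Psmb5 had 65.4 and 88.1.

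**Figure D5:**
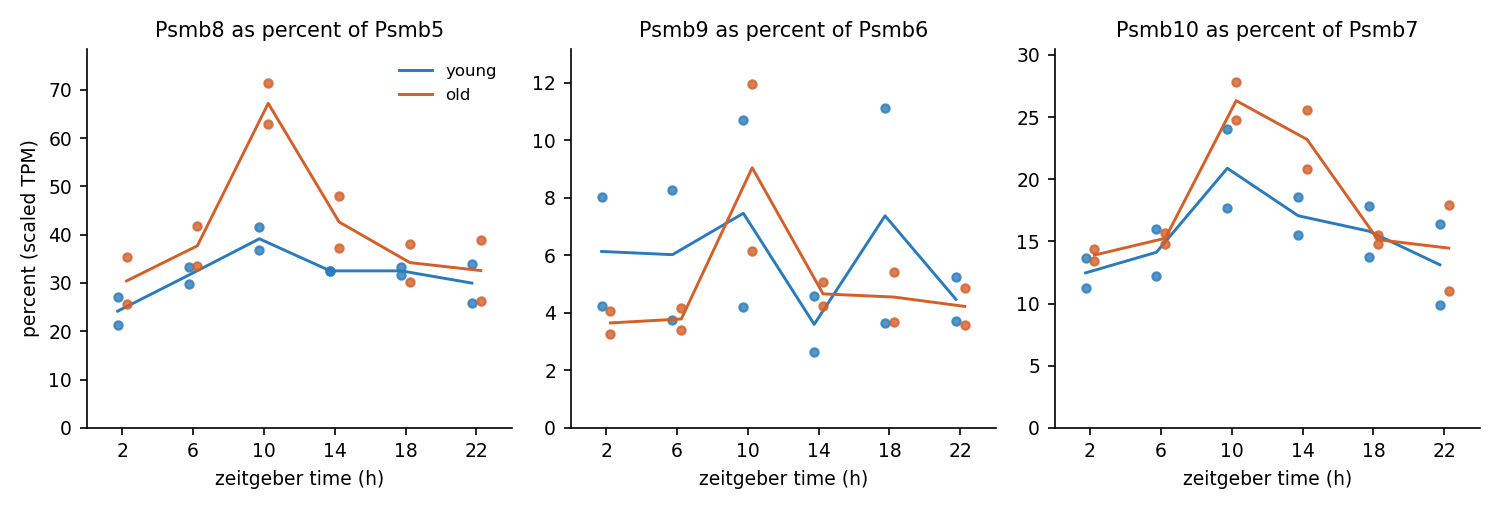
Inducible subunit as a percent of the constitutive subunit it replaces, in scaled TPM, against zeitgeber time in hours; points are libraries and lines join the mean of 2 libraries per age and time. Psmb8 relative to Psmb5 is higher in the old mean at 6 of 6 times and reaches 62.9% and 71.4% at old ZT10.

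Genes for proteasome parts and helpers outside the name rule, among them Adrm1 and Shfm1, also gave no age calls. Of 11 such genes, 10 were tested and 0 passed for age, against 1.64% of all genes. Estimates were below 0 in scaled TPM for 9 of them, against 53.0% of all genes. For the standard subunits this side depended on the scaling. The core assembly factor Pomp was the highest, with 239 ± 41.7 scaled TPM in young and 217 ± 21.1 in old (SD, n = 12). Rhythms passed in 2 of the 10, against 23.9% of all genes. Txnl1, a thioredoxin-like protein of the cap, had an amplitude of 0.49 that peaked at ZT21.4 (limma adjusted p = 0.00777), and Zfand5, a proteasome activator, had 0.50 with a peak at ZT1.64 (limma adjusted p = 0.0260).

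NFE2L1 and the factors that process it or bring substrates to the proteasome gave 12 tested genes. Of these 0 passed for age, against 1.64% of all genes. Nfe2l1 itself had 30.1 ± 5.15 scaled TPM in young and 32.2 ± 6.24 in old (age difference 0.09, limma adjusted p = 0.869). The shuttle genes Ubqln4 (amplitude 0.69, limma adjusted p = 0.0200, peak at ZT17.0) and Ubqln1 (0.39, adjusted p = 0.0296, peak at ZT22.1) were rhythmic, 2 of 12 or 16.7%, against 23.9% of all genes. Of 6 genes for ubiquitin and its activating enzymes none passed for age or rhythm, against 1.64% and 23.9% of all genes. Ubb ranged from 1.15 to 216 scaled TPM over the libraries.

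Class I presentation genes and their regulators gave 11 tested genes, 0 of which passed for age, against 1.64% of all genes. Estimates were above 0 for 9 of the 11, against 5759 of all 12261 genes tested. On the mean of both ages 2 of 11 were rhythmic, or 18.2%, against 23.9% of all genes: Tapbp, which loads peptides (amplitude 0.49, limma adjusted p = 0.0312, peak at ZT9.45), and Nlrc5, the class I transactivator (1.03, adjusted p = 0.0458, peak at ZT8.22). Tap1, the neighbour of Psmb9 and a peptide transporter, had 12.4 scaled TPM at ZT10 and 5.68 at ZT22 over both ages (amplitude 0.80, limma adjusted p = 0.0734). Of 15 tested genes of the interferon response, 6 were rhythmic on the mean of both ages (23.9% of all genes were), 8 in old (8.96% of all genes) and 0 in young (10.7% of all genes). Those with the smallest p were Usp18, Igtp, Gbp7 and Irf7, with amplitudes of 1.21, 1.25, 0.82 and 0.79 and peaks between ZT9.45 and ZT12.4. The test of a rhythm difference between the ages passed in 0 of the 15, as in 0.0% of all genes. At an unadjusted p under 0.05 (limma) it did in 11, against 3.5% of all genes. A rhythm called in old and not in young is therefore not shown to differ between them. With age 1 of the 15 passed, Usp18, which was lower in old by limma (-0.83, adjusted p = 0.0344), against 0.498% of all genes. Age estimates were above 0 for 4 of the 15 and below 0 for 11 (53.0% of all genes were below 0), with a median of -0.28.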

How the data were processed

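Per the labels' protocols, oligo-dT selected mRNA from frozen liver, and strand-specific libraries were read from 1 end over 50 bases. HISAT2, StringTie and GRCm38 are named in the submitters' processing notes, with no versions. The deposited coverage is the signal per base of each gene, not scaled for depth. The deposited FPKM and TPM were made by the authors per gene, and the deposited TPM sum to 1000000 per library. With no counts in the files, the counting error of a value is unknown. Reads per library were derived from the ratio of coverage to FPKM.

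Entries with the same identifier were summed. Each library's TPM were divided by a median-of-ratios factor, taken from 13270 genes with values above 0 in all 24. Genes with a mean of at least 1 deposited TPM entered limma 3.58.1 (R 4.3.3, empirical Bayes with a trend) as log2(scaled TPM + 0.5), so fold changes are on that scale and understate those of low genes. Age differences came from group means (12 groups, with 12 degrees of freedom left), and rhythms from a 24 h cosine and sine fitted in each age, with 18 left. p-values were adjusted by Benjamini-Hochberg over 12261 genes, with a threshold of 0.05. Python 3.11.15, numpy 2.4.6, pandas 2.3.3 and matplotlib 3.10.9 did the rest.

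The genes of the family, the other lists and the tests were chosen with earlier results of these data known, and the other lists serve as description. Named were the 3 immunoproteasome genes, the 3 subunits they replace, Psme1 and Psme2, the highest and the lowest gene, genes that failed the filter, genes past a threshold, and the 3 smallest p where none passed. Of other lists, up to 4 genes past a threshold were named. Tap1, Pomp, Nfe2l1, Ubb, Psmc1 and other single genes given for a range or as landmarks fall outside this rule and were chosen after their values were seen. In deriving the ribosomal list, S6 kinase genes were left out. Of the other proteasome genes, 1 of 11 was not matched. A marker result is not reported here.

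The fits were tested on simulated data of 12261 genes. For age, planted differences of 0.5, 1, 1.5 and 2 (log2) were recovered in 52%, 92%, 98% and 100%, with 12 false of 183 calls. For rhythms on the mean of both ages these shares were 26%, 74%, 94% and 96%, with 9 false of 154 calls. In the real data 2935 genes were called for that rhythm, and the simulated errors were independent between libraries. The recovered shares may therefore differ in the real data. Alternatives were other scalings, pseudocounts of 0.1 and 1, no filter or one at 5 TPM, a replicate block, and fits without single libraries, without 2 libraries that stood apart or without ZT10.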

Additional observations from a re-analysis of the deposited data

How the results depend on the processing

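Without scaling (deposited TPM), 1 gene of the family was higher in old, Psmb8. The test over 6 times without a curve gave 2 rhythmic genes on the mean of both ages, 0 in young and 0 in old, against 5, 1 and 4 with the cosine. Without ZT10 there were 0 rhythmic genes in young and 0 in old, and without both libraries that stood apart 2 (Psmb10 and Psmd14) and 1 (Psmb10), and fewer libraries entered these fits. The Psmb8 to Psmb5 difference was 0.22 without ZT10. Over the fits without 1 library each, rhythmic genes numbered 4 to 6 on the mean of both ages, 0 to 2 in young (0 without the first young ZT10, second young ZT10 or first young ZT22 library) and 1 to 4 in old (1, Psmb10, without the first old ZT14 library). Age calls over the day, age calls at single times and rhythm differences were 0 in each of those fits. In those fits the standard subunits' median age difference was -0.09 to -0.03 and their median amplitude 0.18 to 0.22. The ratio differences were 0.27 to 0.36 for Psmb8 to Psmb5, -0.30 to -0.04 for Psmb9 to Psmb6 and 0.13 to 0.26 for Psmb10 to Psmb7. In the other settings the median age difference was -0.09 to 0.05. The cause of these changes was not tested.

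Deviations of same-numbered libraries correlated over 0.1 in 52 of 66 pairs of groups (median 0.19, range -0.16 to 0.45), a hint that many of them share something. The number was not taken as a pairing, because the correlation did not pass in every pair of groups and the labels do not say what the number marks. The standard subunits were higher in the first replicate in 11 of 12 groups in scaled TPM and in 4 of 12 in deposited TPM, and the scaling factor was lower in the first in 11 of 12. With a replicate block, 1 gene of the family was higher in old (Psmb8, limma adjusted p = 0.0481), 1 differed at a single time (Psmb8 at ZT10, adjusted p = 0.0162) and 3 were rhythmic in young (Psmd14, Psmb10 and Psmd11), and the Psmb10 to Psmb7 difference of 0.195 had an exact permutation adjusted p of 0.0469. Among all genes the block raised the calls for age from 140 higher and 61 lower to 220 and 133.

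Depth was 8.70 to 13.7 M reads per library, and the counting error of low genes such as Psmb9 (mean 10.2 scaled TPM) is not known.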

Other observations

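The 4 pseudogenes left out by name were near 0. Psmb5-ps had a mean of 0.0314 scaled TPM and was at 0 in 21 libraries, Psmb7-ps2 had 0.184, Psmb6-ps was at 0 in 24 and Psmb6-ps2 had 0.556, with a range of 0.112 to 1.15. The parent genes Psmb5, Psmb6 and Psmb7 had means of 83.2, 192 and 205 scaled TPM.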
